A study of Drosophila melanogaster with 6 samples.

Results

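The cuticle protein genes of Drosophila were followed in GFP+ myoblasts sorted from leg discs and in the input, which holds every cell of the disc. Genes were taken from the deposited expression table by name, as symbols starting with Cpr, Lcp, Ccp, Edg, Pcp or Twdl, which gave 125 of the 17490 genes listed. One of them, Cpr itself, encodes the NADPH-cytochrome P450 reductase and is no cuticle protein, so that 124 cuticle protein genes (including the pseudogenes Lcp1Psi and Lcp65APsi) remained and Cpr was kept apart. Of the 124 genes, 11 reached 1 RPKM (reads per gene, corrected for gene length and for library size) in 3 or more of the 6 libraries, and 113 stayed below this filter. Over the whole table, 43.1% of genes passed it (7533 of 17490).

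Both groups carried the same genotype, R32D05-lexA>lexAopGFP, in which the R32D05 fragment drives the foreign activator lexA and, through it, GFP in the myoblasts of the leg disc. Both came from discs taken at 0 h after pupae formation (APF) and dissociated with collagenase and papain. GFP+ myoblasts (3 replicates) were sorted by fluorescence, and the input (3 replicates) was left as whole leg disc cells. The input therefore also contained the myoblasts, and in such bulk samples fewer cells of a type and less RNA per cell cannot be told apart.

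Insect cuticle is an extracellular coat of chitin fibres and proteins that is laid down at the apical face of epithelia such as the epidermis, the trachea and the imaginal discs. Most of its proteins carry the Rebers-Riddiford motif, a chitin-binding stretch, and the Cpr genes are named for it and for their place on the polytene map. The Lcp (larval cuticle protein) and Ccp (cuticle cluster) genes belong to the same superfamily and lie in tandem arrays. Edg78E, Edg84A and Edg91 are ecdysone-dependent genes, Pcp is a pupal cuticle protein, and the Tweedle (Twdl) genes form a separate family whose founding mutants have a squat body. Cuticle genes are switched on in sets at each moult and at pupariation under the pulses of the steroid ecdysone. Muscle precursors lie on the basal side of the disc epithelium and secrete no cuticle.

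All 10 genes of a myoblast list (ct, Him, htl, kon, mbc, Mef2, stumps, twi, vg, zfh1) were higher in GFP+ myoblasts. They summed to between 696 and 852 RPKM in a myoblast library, against 108 to 151 RPKM in an input library. All 10 were called higher (limma, Benjamini-Hochberg-adjusted p below 0.05, change of more than 1.5-fold), against 5.52% of all genes tested. Apart from kon, mbc and stumps, the paper already names these genes as enriched in the same libraries. Their result was thus known beforehand and is no independent check of the sort. The totals of reads behind the RPKM, recovered from the steps between low values, lay between 64762130 and 84318150 in myoblast libraries and between 41453613 and 67764430 in input libraries. Input replicate 1 stood apart from the other inputs. Across the genes tested its log2 values correlated with theirs at 0.875 and 0.915 (Pearson), where input replicates 2 and 3 correlated at 0.954 and myoblast libraries at 0.980 to 0.986. Its RPKM also summed to 963726, against 481720 and 589908 in input replicates 2 and 3 and 585415 to 668659 in the myoblast libraries.

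**Figure D1:**
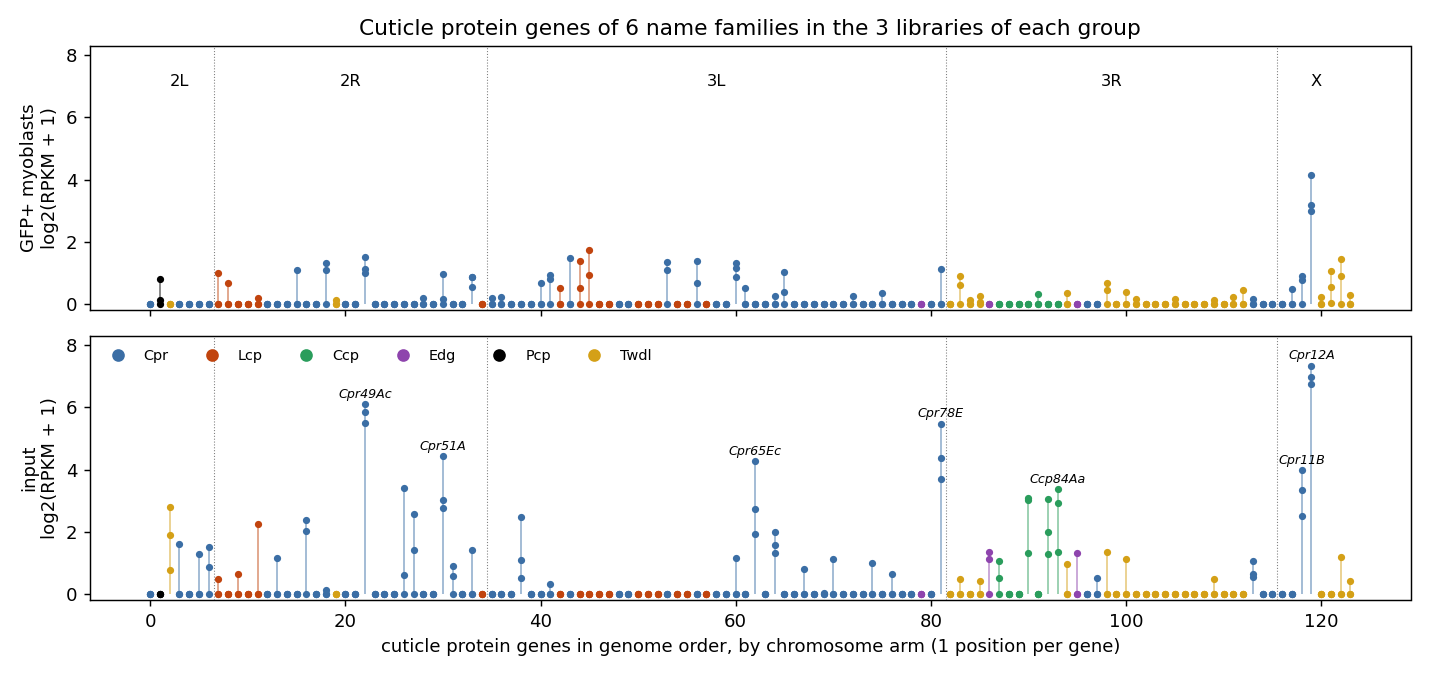
The 124 cuticle protein genes in genome order, 1 position per gene, with log2(RPKM + 1) in each of the 3 GFP+ myoblast libraries (top) and the 3 input libraries (bottom), coloured by name family. Most positions are at or near 0 in both panels, and the highest gene in each is Cpr12A, with up to 16.8 RPKM in myoblasts and up to 162 RPKM in the input.

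Most cuticle protein genes were listed at 0 or at low values. Of the 124, 52 were listed at 0 in all 6 libraries, and of the 113 genes below the filter none exceeded 2.30 RPKM in a myoblast library or 9.61 RPKM in an input library. A listed 0 is not read as silence here. Of 88 genes named RpL or RpS, for ribosomal proteins, 6 were also at 0 in all 6 libraries and 7 in at least 1. Which genes these were, and whether leg discs express them, was not examined. The 124 genes together made up 0.00430%, 0.00445% and 0.00365% of the RPKM sum in myoblast replicates 1, 2 and 3, and 0.0346%, 0.0495% and 0.0479% in input replicates 1, 2 and 3. The summed level was thus 28.8, 26.0 and 23.8 RPKM in the myoblast libraries, against 334, 239 and 283 RPKM in the input libraries. In the input, most of that sum came from few genes, since Cpr12A, Cpr49Ac and Cpr78E held between 73.3% and 75.8% of it.

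By family, the genes that reached the filter were 8 of 70 Cpr genes and 3 of 7 Ccp genes. None of the 17 Lcp, 3 Edg, 1 Pcp and 26 Twdl genes did. The 11 genes were spread over the genome, with 2 of 28 cuticle protein genes on arm 2R, 4 of 47 on 3L, 3 of 34 on 3R, 2 of 8 on the X chromosome and none of 7 on 2L. When neighbours whose starts lay within 20000 bases were joined, 92 genes fell into 16 arrays and 32 stood alone. The filter was passed by 6 of the 92 genes in arrays and by 5 of the 32 genes that stood alone.

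Cpr12A (FBgn0030494, X chromosome of dm6, 13543643 to 13544907) was the most abundant of all, and ranked 538th in the table by mean input RPKM. It had 16.8, 8.07 and 6.89 RPKM in myoblast replicates 1, 2 and 3, and 162, 106 and 127 RPKM in input replicates 1, 2 and 3. All 3 myoblast values were far below the lowest input value, with means of 10.6 ± 5.44 in myoblasts and 131 ± 28.2 in the input (SD, n = 3 each). The log2 fold change was -3.59 (SE 0.329, limma, Benjamini-Hochberg-adjusted p = 0.000174). It was also the only cuticle protein gene with at least 1 RPKM in all 6 libraries, and its mean level in myoblasts was 8.07% of that in the input. The myoblast values rested on 1217, 584 and 383 reads.

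Cpr49Ac (FBgn0033725, arm 2R, 12386666 to 12390057) lies in an array of 8 Cpr genes. It had 1.86, 1.20 and 0.985 RPKM in myoblast replicates 1, 2 and 3, and 44.3, 57.0 and 67.8 RPKM in input replicates 1, 2 and 3. The groups did not overlap, and the log2 fold change was -4.61 (SE 0.263, limma, Benjamini-Hochberg-adjusted p = 1.96e-05). The mean in myoblasts was 2.39% of the input mean. Around it in the array, 5 of the 8 genes were listed at 0 in every library, and Cpr49Ag and Cpr49Ah had no value above 0 in myoblasts. In the input, Cpr49Ag had 9.61, 0 and 0.522 RPKM in replicates 1, 2 and 3, and Cpr49Ah had 0, 4.998 and 1.64 RPKM.

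Cpr78E (FBgn0037114, arm 3L, 21666452 to 21666980) stood alone. It was listed at 0, 1.20 and 0 RPKM in myoblast replicates 1, 2 and 3, against 43.8, 12.0 and 19.8 RPKM in input replicates 1, 2 and 3. The single myoblast value rested on 47 reads, and the lowest input value on 337 reads. The log2 fold change was -4.14 (SE 0.513, limma, Benjamini-Hochberg-adjusted p = 0.000809). Input replicate 1 held the highest value, and with all libraries brought to 1 sum the inputs were closer, at 29.8, 16.4 and 22.1 RPKM in replicates 1, 2 and 3.

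**Figure D2:**
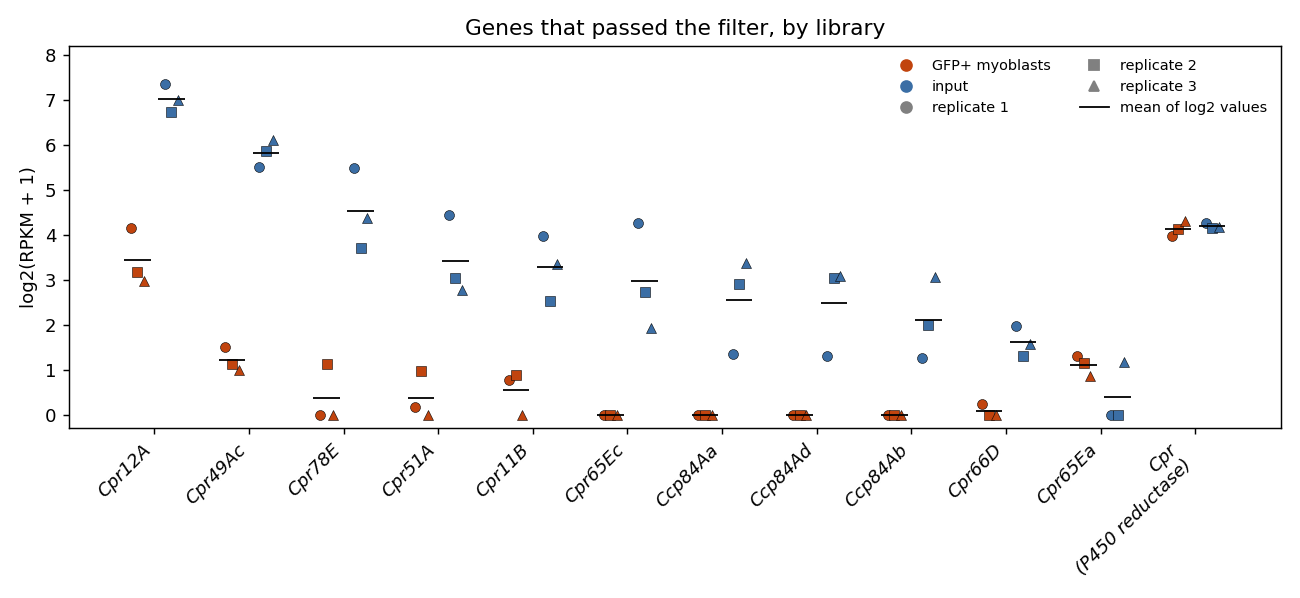
Log2(RPKM + 1) of the 11 cuticle protein genes that passed the filter, ordered by mean input level, and of Cpr (P450 reductase), with GFP+ myoblasts left of the input, marker shapes for replicates and bars for the mean of the log2 values. Of the 11 genes, 10 have every myoblast library below every input library, and Cpr65Ea and Cpr overlap between groups. For 7 of the 10 the filter fixed this order.

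Among the genes of moderate level, Cpr51A (FBgn0033942, arm 2R, 14512559 to 14515211) had 0.128, 0.966 and 0 RPKM in myoblast replicates 1, 2 and 3, and 20.8, 7.22 and 5.83 RPKM in input replicates 1, 2 and 3. Its log2 fold change was -3.04 (SE 0.494, limma, Benjamini-Hochberg-adjusted p = 0.00346). Input replicate 1 again held the highest value. The small gene CG30197 lies within the span of Cpr51A on the opposite strand, shares no exon bases with it, and had 0.790, 0 and 4.43 RPKM in myoblast replicates 1, 2 and 3 and 18.8, 0 and 3.68 RPKM in input replicates 1, 2 and 3.

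Cpr11B (FBgn0030398, X chromosome, 12553124 to 12554235) lies in an intron of hwt on the opposite strand. It had 0.712, 0.855 and 0 RPKM in myoblast replicates 1, 2 and 3, and 14.7, 4.75 and 9.27 RPKM in input replicates 1, 2 and 3. The log2 fold change was -2.73 (SE 0.437, limma, Benjamini-Hochberg-adjusted p = 0.00315). Its host hwt had at most 0.0968 RPKM in a myoblast library and between 1.76 and 7.39 RPKM in the input, where it was lowest in replicate 1 while Cpr11B was highest there.

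Cpr66D (FBgn0052029, arm 3L, 8640439 to 8643584) had 0.183, 0 and 0 RPKM in myoblast replicates 1, 2 and 3, and 2.95, 1.48 and 1.96 RPKM in input replicates 1, 2 and 3. The log2 fold change was -1.54 (SE 0.320, limma, Benjamini-Hochberg-adjusted p = 0.0108). This call was lost when any single myoblast library was left out, with adjusted p of 0.0519, 0.0630 and 0.0626 without myoblast replicate 1, 2 and 3, and under quantile normalization (adjusted p = 0.399). Over all alternatives it lay between 0.00343 and 0.399.

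The array on arm 3L that holds Cpr65Ea, Cpr65Eb and Cpr65Ec was not uniform. Cpr65Ec (FBgn0035737, arm 3L, 7093204 to 7093841) was listed at 0 in all 3 myoblast libraries and had 18.3, 5.67 and 2.82 RPKM in input replicates 1, 2 and 3 (limma, Benjamini-Hochberg-adjusted p = 0.00643). No fold change is given against a group listed at 0. Quantile normalization ended this call (adjusted p = 0.0595, with a range of 0.000536 to 0.110 over the alternatives). Cpr65Ea (FBgn0035735, 7086003 to 7086608) had 1.47, 1.21 and 0.829 RPKM in myoblast replicates 1, 2 and 3 and 0, 0 and 1.26 RPKM in input replicates 1, 2 and 3.

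These values of Cpr65Ea rested on 67, 55 and 29 reads in the myoblast libraries and on 46 reads in input replicate 3. The groups overlapped, and the log2 fold change of 0.72 did not pass the test (SE 0.408, limma, Benjamini-Hochberg-adjusted p = 0.289). Under quantile normalization, which moved the median of all genes tested to 0.16 on the log2 scale, the gene was called higher (log2 fold change 1.41, adjusted p = 0.0108, with a range of 0.0108 to 0.561 over the alternatives). The middle gene, Cpr65Eb, was listed above 0 only in myoblast replicate 2, at 0.413 RPKM.

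**Figure D3:**
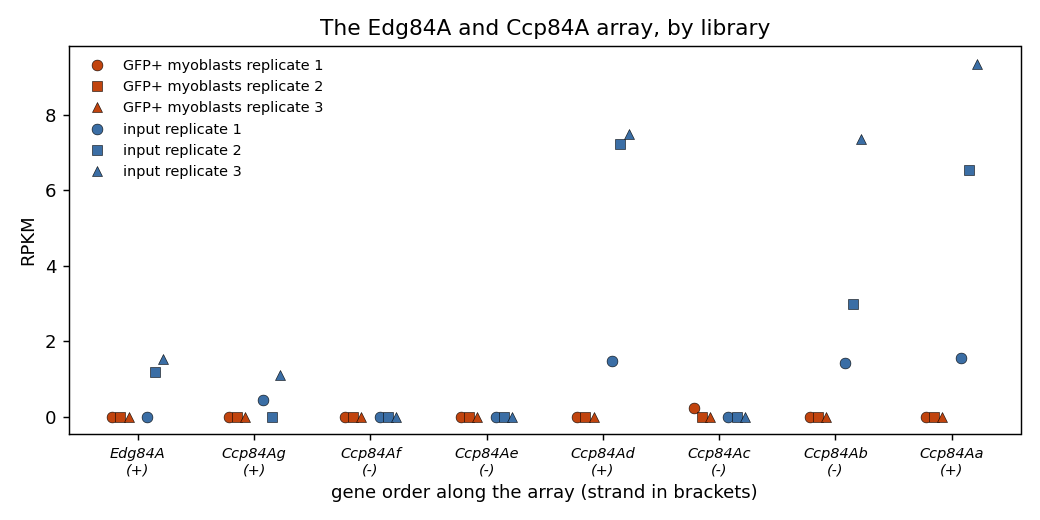
RPKM in each library for the 8 genes of the array of Edg84A and the Ccp84A genes, in genome order and with the strand of each gene in brackets, GFP+ myoblasts left of the input. Ccp84Ad, Ccp84Ab and Ccp84Aa reach 7.36 to 9.36 RPKM in input replicate 3, Ccp84Af and Ccp84Ae are at 0 throughout, and the only value above 0 in myoblasts is that of Ccp84Ac, 0.235 RPKM.

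The Ccp84A array on arm 3R (6684445 to 6704903) starts with Edg84A and goes on with the 7 Ccp84A genes. Ccp84Ad, Ccp84Ab and Ccp84Aa were listed at 0 in all 3 myoblast libraries. In input replicates 1, 2 and 3, Ccp84Aa (FBgn0004783) had 1.55, 6.53 and 9.36 RPKM, Ccp84Ad (FBgn0004780) had 1.48, 7.23 and 7.49 RPKM, and Ccp84Ab (FBgn0004782) had 1.42, 2.98 and 7.36 RPKM. Each of the 3 genes was thus lowest in input replicate 1 and highest in input replicate 3. The adjusted p was 0.00930 for Ccp84Aa, 0.00911 for Ccp84Ad and 0.0136 for Ccp84Ab (limma, Benjamini-Hochberg).

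The call of Ccp84Ab was lost when myoblast replicate 1, 2 or 3 was left out (adjusted p = 0.0587, 0.0571 and 0.0600) and under quantile normalization (adjusted p = 0.105, with a range of 0.000740 to 0.113 over the alternatives). These 3 genes carried 91.0%, 93.3% and 90.2% of the RPKM of the array in input replicates 1, 2 and 3. They were not adjacent, since Ccp84Ac lies between Ccp84Ad and Ccp84Ab and was listed at 0 in every input library. Edg84A had 0, 1.19 and 1.54 RPKM in input replicates 1, 2 and 3, and Ccp84Ag had 0.440, 0 and 1.10 RPKM, both with 0 in all myoblast libraries. The genes of the array are related copies, and how the counting divided reads between them was not examined here.

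In all, 10 of the 11 cuticle protein genes tested were called lower in GFP+ myoblasts and 0 higher (limma, with a Benjamini-Hochberg-adjusted p below 0.05 and a change of more than 1.5-fold). At an unadjusted p under 0.05 the count of higher genes was also 0. Of all 7533 genes tested, 14.8% were called lower and 5.52% higher. The same 10 genes had every myoblast library below every input library, which held for 21.5% of all genes tested, and for each of them the exact two-sided permutation test gave p = 0.1, which is the lowest value it can take with 3 libraries in each group. The median log2 fold change was -2.73 over the 11 genes and 0.01 over all genes tested. The filter itself favours such genes, because 7 of the 10 had no myoblast library at 1 RPKM and passed through the input alone. For those 7 the filter fixed the separation of the groups, and with it the result of the permutation test, in advance. These counts therefore describe the 11 genes and not the families, and the 21.5% is no free comparison for them.

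**Figure D4:**
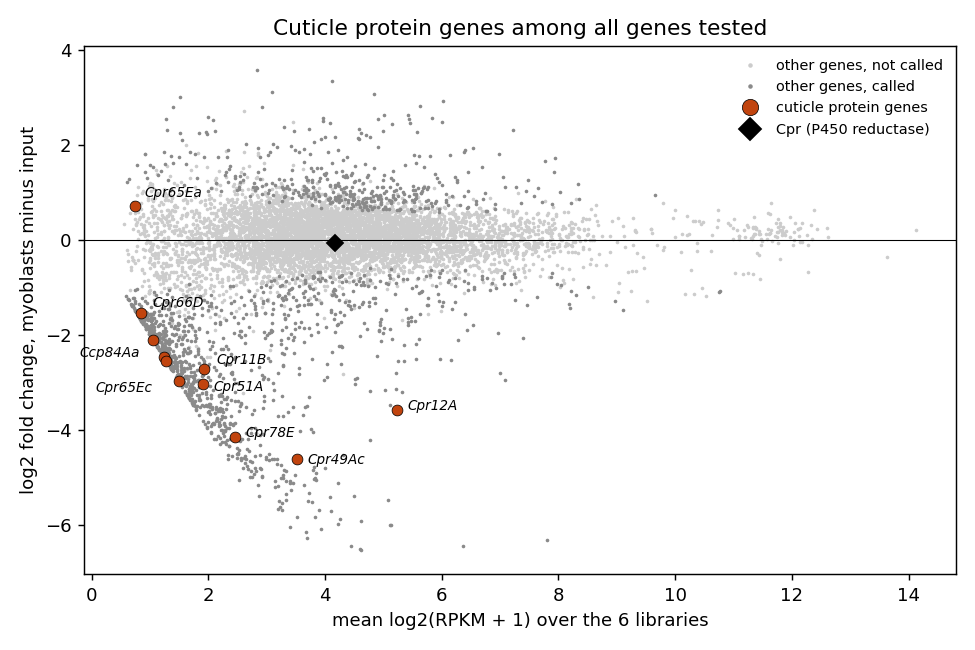
Log2 fold change (GFP+ myoblasts minus input) against the mean log2(RPKM + 1) over the 6 libraries for all 7533 genes tested, with the cuticle protein genes as orange circles and Cpr (P450 reductase) as a black diamond. Of the 10 genes called lower, those other than Cpr12A lie along or near the lower edge of the cloud, where genes are at or close to 0 RPKM in myoblasts.

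When every gene of the table was tested without a filter, 4 of the 124 genes were called lower, Cpr12A, Cpr49Ac, Cpr78E and Cpr66D, where 3.86% of all genes of the table were called lower. As a share, 4 of 124 is no higher than that of all genes. The other 6 genes then had an adjusted p between 0.0780 and 0.117 (limma, Benjamini-Hochberg). With the filter, 416 of all genes tested were called higher and 1118 lower, a split that scaling changed to 809 and 797 with quantile normalization and to 180 and 924 with all libraries brought to 1 sum. The P450 reductase Cpr (FBgn0015623), by contrast, had 14.6, 16.6 and 18.9 RPKM in myoblast replicates 1, 2 and 3 and 18.3, 16.8 and 17.1 RPKM in input replicates 1, 2 and 3, and was not called (log2 fold change -0.06, limma, Benjamini-Hochberg-adjusted p = 0.883).

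The larval cuticle genes were listed at low values or at 0. In the array of Lcp1, Lcp1Psi, Lcp2, Lcp3 and Lcp4 on arm 2R (8430115 to 8438495), Lcp4 had 3.75 RPKM in input replicate 1, 0.135 RPKM in myoblast replicate 2 and 0 elsewhere, and Lcp3 was at 0 in every library. The larger array from Lcp65Ag3 to Cpr65Az on arm 3L (6130386 to 6161589) holds 18 Lcp and Cpr genes, none of which had a value above 0 in any input library. In myoblasts, 6 of these 18 genes were listed above 0, with sums over the array of 1.73, 3.14 and 7.45 RPKM in replicates 1, 2 and 3. The highest was Lcp65Ag1, with 0.896, 0 and 2.30 RPKM in myoblast replicates 1, 2 and 3. Lcp65Ag2 had 0.416, 0 and 1.59 RPKM, Cpr65Ax1 had 0, 1.55 and 1.15 RPKM and Cpr65Ax2 had 0, 1.59 and 0.612 RPKM in the same libraries. Lcp65Ag1, Lcp65Ag2 and Lcp65Ag3, and likewise Cpr65Ax1 and Cpr65Ax2, are named as copies of each other, and reads divided between copies make the value of each single gene uncertain. Lcp65Ag2 and Lcp65Ag3 both had 19 reads in myoblast replicate 1, and Cpr65Ax1 and Cpr65Ax2 both had 29 in myoblast replicate 3. Whether the same reads were counted for both copies was not examined, so the count of 6 genes and the sums over the array are uncertain too.

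The pupal and ecdysone-dependent genes were low as well. Edg78E, a pupal cuticle gene, was at 0 in all 6 libraries, as were its 3 neighbours Cpr78Ca, Cpr78Cb and Cpr78Cc. Edg91 had 1.51 RPKM in input replicate 3 and 0 elsewhere. Pcp had 0.0993, 0.743 and 0 RPKM in myoblast replicates 1, 2 and 3 and 0 in the input.

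Of the 26 Tweedle genes, 9 were at 0 in all libraries and none passed the filter. TwdlE was the highest, with 0 RPKM in all 3 myoblast libraries and 0.717, 5.93 and 2.70 RPKM in input replicates 1, 2 and 3. The 12 Twdl genes from TwdlM to TwdlD on arm 3R reached at most 0.611 RPKM in myoblasts and 1.56 RPKM in the input. The 4 Twdl genes on the X chromosome reached at most 1.70 RPKM in myoblasts, in TwdlZ, which had 0, 0.875 and 1.70 RPKM in myoblast replicates 1, 2 and 3 and 0, 1.29 and 0 RPKM in input replicates 1, 2 and 3.

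Just inside the filter, 8 genes had exactly 3 libraries at 1 RPKM or more, and just outside it 8 genes had 2. In 5 of those outside (TwdlE, Cpr47Ee, Cpr49Ah, Cpr64Aa and Edg84A) both libraries were inputs and all myoblast values were 0, in Cpr47Eg and Cpr65Ax1 both were myoblast libraries, and TwdlZ had 1 of each. Cpr47Ee had 0, 4.25 and 3.10 RPKM and Cpr64Aa had 4.59, 0.424 and 1.14 RPKM in input replicates 1, 2 and 3. Cpr47Eg had 1.47, 1.13 and 0 RPKM in myoblast replicates 1, 2 and 3 and at most 0.105 RPKM in the input.

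Among the 113 genes below the filter, 27 were listed above 0 only in myoblasts, 20 only in the input, 14 in both groups and 52 in none. As shares these were 23.9%, 17.7%, 12.4% and 46.0%, where all 9957 genes below the filter gave 10.4%, 11.4%, 14.9% and 63.3%. Most such signals were isolated, since 20 of the 27 genes seen only in myoblasts and 11 of the 20 seen only in the input were above 0 in a single library. Over all of the 113 genes listed above 0 in a library, the median was 19, 44.5 and 56 reads in myoblast replicates 1, 2 and 3. In input replicates 1, 2 and 3 it was 61, 50.5 and 69 reads. The most reads behind such a value were 98 in a myoblast library and 482 in an input library.

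A listed 0 says little at this level. Where the other 2 libraries of a group averaged from 1 to under 2 RPKM for a gene of the table, that gene was at 0 in 9.72% of cases in myoblast replicate 1, 14.6% in replicate 2 and 22.6% in replicate 3, and in 47.0%, 24.0% and 20.7% in input replicates 1, 2 and 3. From 5 to under 10 RPKM the share was at most 0.775% in a myoblast library and at most 2.76% in an input library. The inputs of Cpr12A, Cpr49Ac and Cpr78E lay above this range, and those of Cpr66D, Cpr65Ea and the Ccp84A genes within or below it.

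**Figure D5:**
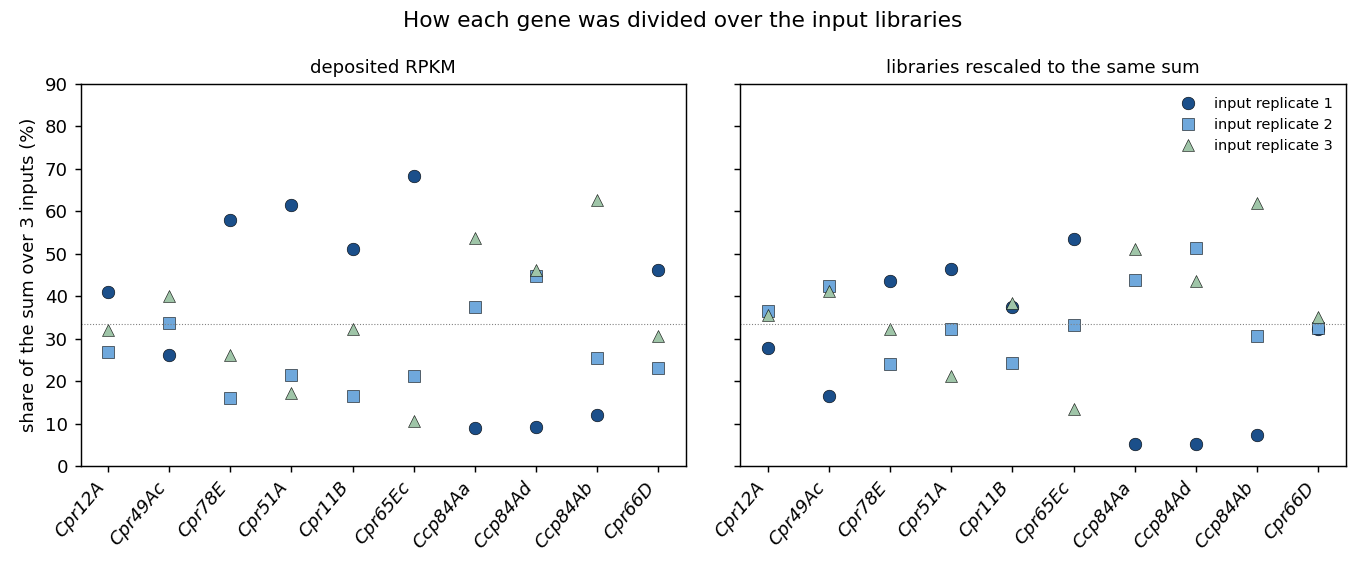
Share of each gene's summed input level that fell in input replicates 1, 2 and 3, from the deposited RPKM (left) and with all libraries brought to 1 sum (right), for the 10 genes called lower in myoblasts. Cpr65Ec had 68.3% in input replicate 1 and the 3 Ccp84A genes 8.86% to 12.1%, and the dotted line marks an equal division.

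The input libraries did not agree on the order of the cuticle protein genes. In the deposited values, input replicate 1 was the highest input for Cpr12A, Cpr78E, Cpr51A, Cpr11B, Cpr65Ec and Cpr66D, and the lowest for Cpr49Ac, Ccp84Ad, Ccp84Ab and Ccp84Aa. Cpr65Ec had 68.3%, 21.2% and 10.52% of its summed input level in replicates 1, 2 and 3, Cpr51A had 61.4%, 21.3% and 17.2%, and Ccp84Aa had 8.86%, 37.5% and 53.7%. With all libraries brought to 1 sum, replicate 1 remained the highest input for Cpr65Ec, Cpr51A and Cpr78E, with 53.4%, 46.5% and 43.7% of their levels. It was then the lowest for Cpr12A and Cpr66D too, and stayed lowest for the 3 Ccp84A genes (5.17% to 7.31%) and Cpr49Ac (16.5%). Under both scalings, then, input replicate 1 was the highest input for Cpr65Ec and the lowest for the 3 Ccp84A genes.

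Markers of other tissues also differed among the inputs. The 8 fat body genes summed to 31.6 RPKM in input replicate 1, against 0.642 and 1.66 RPKM in replicates 2 and 3 and at most 1.05 RPKM in a myoblast library. The 8 salivary gland genes summed to 1.66 and 4.73 RPKM in input replicates 1 and 2 and to 406 RPKM in replicate 3, and to at most 1.81 RPKM in myoblasts. He, a hemocyte gene, had 0.318, 0 and 0 RPKM in myoblast replicates 1, 2 and 3 and 38.8, 2.02 and 3.73 RPKM in input replicates 1, 2 and 3, whereas the defining hemocyte gene Hml had at most 0.377 RPKM in any library. No gene of the fat body and salivary gland lists passed the filter, and of the 8 hemocyte genes 5 were tested. Against 14.8% and 5.52% of all genes tested, 2 of them were called lower and 1, Ppn, higher in myoblasts. The 2 called lower, He and eater, had no myoblast library at 1 RPKM. The part of these cells in the input levels of the cuticle protein genes was not tested. Without input replicate 1, all 10 genes were still called lower, and likewise without input replicate 2 or 3. Of all 7533 genes tested, 1471, 1109 and 884 were called lower without input replicate 1, 2 and 3. The filter was not set anew for these fits. Since 7 of the 10 genes passed it through the 3 inputs alone, they would fail it with an input left out.

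Genes of the disc epithelium were set beside the cuticle protein genes as a measure of the sort. Of 14 such genes tested, 9 were called lower in myoblasts and 0 higher, against 14.8% and 5.52% of all genes tested. Of the 9, 4 (Dll, al, crb and grh) had no myoblast library at 1 RPKM and passed the filter through the input alone. As a percentage of the input level, the mean myoblast level was 1.58% for al, 0.847% for Dll, 1.71% for dac and 1.61% for grh. It was 4.01% for crb, 4.21% for Fas3, 19.4% for sdt, 20.6% for Ser and 28.5% for ed. The corresponding value was 1.59% for Cpr78E, 2.39% for Cpr49Ac, 2.86% for Cpr66D, 3.23% for Cpr51A, 5.45% for Cpr11B and 8.07% for Cpr12A. Over all 14 genes of the epithelial list the percentage ran from 0.847% to 149% with a median of 20.01%, and the means of shg, bab2 and kug were higher in myoblasts than in the input without passing the test. The genes of a tracheal list summed to 5.06, 4.90 and 5.38 RPKM in myoblast replicates 1, 2 and 3. In input replicates 1, 2 and 3 they summed to 152, 227 and 200.6 RPKM. These sums are not read as a measure of trachea, since most of the input sum was pio, with 118, 167 and 159 RPKM in input replicates 1, 2 and 3. Which cells of the disc expressed pio was not tested. Of the 5 tracheal genes tested, 4 were called lower, against 14.8% of all genes tested. Of these 4, trh, uif and vvl had no myoblast library at 1 RPKM and passed the filter through the input alone. Among them, trh had 0.0691, 0.390 and 0 RPKM in myoblast replicates 1, 2 and 3 and 3.85, 5.91 and 4.08 RPKM in input replicates 1, 2 and 3. The remaining gene, btl, was not called, with 1.76, 1.47 and 2.11 RPKM in myoblast replicates 1, 2 and 3 and 0.334, 1.71 and 0.0372 RPKM in input replicates 1, 2 and 3. The part of residual epithelial cells in the myoblast values of Cpr12A was not tested.

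Chitin is the polysaccharide partner of the cuticle proteins. Tested genes of a list for its synthesis, assembly and remodelling were also mostly lower in myoblasts. Of 22 genes on this list, 17 were tested, 13 were called lower in myoblasts and 0 higher, against 14.8% and 5.52% of all genes tested, and their median log2 fold change was -3.50. As with the cuticle protein genes, the filter favours such calls, since 7 of the 13 (knk, exp, Cht7, Cht5, Gfat1, Cda4 and rtv) had no myoblast library at 1 RPKM. With 1 added to each RPKM, verm, a chitin deacetylase, had the most negative log2 fold change (-6.45), although knk, Cht5, rtv and Cda4 had a lower myoblast level as a percentage of the input. For verm the libraries held 2.12, 1.64 and 0.528 RPKM in myoblast replicates 1, 2 and 3 and 160, 234 and 223 RPKM in input replicates 1, 2 and 3. Cht10, a chitinase, had 1.14, 1.04 and 0.886 RPKM in myoblast replicates 1, 2 and 3, against 63.2, 119 and 103 RPKM in input replicates 1, 2 and 3. Gfat1, which catalyses the first step towards the chitin precursor, had 0.746, 0.782 and 0.123 RPKM in myoblasts and 53.5, 55.2 and 43.6 RPKM in the input. The 4 genes not called were Cht2, Idgf6, nst and mmy, the last of which makes the sugar nucleotide used for chitin and for other glycans.

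Of 15 further cuticle matrix genes, 10 were matched and 3 tested, and all 3 were called lower, against 14.8% of all genes tested. One of the 3, obst-B, had no myoblast library at 1 RPKM. Among them, obst-A and obst-B, chitin-binding matrix proteins, had log2 fold changes of -5.07 and -4.07. Gasp changed less, with 9.91, 6.63 and 8.16 RPKM in myoblast replicates 1, 2 and 3 and 39.1, 31.2 and 32.3 RPKM in input replicates 1, 2 and 3 (log2 fold change -1.94, limma, Benjamini-Hochberg-adjusted p = 0.000556). The adult cuticle genes Acp1 and Acp65Aa were at 0 in all 6 libraries. Of 15 genes of cuticle tanning, 12 were matched and 1 was tested. This gene, Dat, which acetylates dopamine, was listed at 0 in all 3 myoblast libraries and had 4.61, 2.72 and 4.55 RPKM in input replicates 1, 2 and 3 (limma, Benjamini-Hochberg-adjusted p = 0.00124). Dat was thus called lower, as were 14.8% of all genes tested, but it passed the filter through the input alone. Among those below the filter, yellow-f had 0.223, 0.742 and 0 RPKM in myoblast replicates 1, 2 and 3 and 23.3, 1.03 and 0.728 RPKM in input replicates 1, 2 and 3, and so was high in a single input. For ple, the tyrosine hydroxylase of the pathway, no library exceeded 1.26 RPKM.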

How the data were processed

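RNA of 3 myoblast and 3 input replicates was made into oligo(dT) single-end libraries. The authors filtered reads with Cutadapt, aligned them with HISAT2 2.1.0 and counted them with HTSeq 0.11.2 on dm6, with versions from the submitters' processing notes, and deposited RPKM values from Cufflinks, without pseudocount or logarithm. Strand use in counting is not given in the sources used here. The authors' test, DESeq2 on counts, was not repeated, since the deposited table holds RPKM. No statement says that replicates came from separate animals, so p-values measure only the spread between these samples.

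Genes reaching 1 RPKM in 3 or more libraries were compared on log2(RPKM + 1) with limma 3.58.1 in R 4.3.3 (empirical Bayes with trend, Benjamini-Hochberg over all genes tested), and called at an adjusted p below 0.05 with a change of more than 1.5-fold. This scale understates changes of low genes. The procedure was tested on simulated data with normal noise. It recovered 28 of 50 genes changed by 1 on the log2 scale, 49 of 50 changed by 2, and all 50 at 3 and at 4. There were 11 false calls among unchanged genes. The simulation held no listed zeros, so it does not cover groups at or near 0. It also gave both groups the same spread for each gene and held no library that stood apart. It therefore does not cover inputs that spread more than the myoblast libraries, as they did here. Positions and exon lengths came from Ensembl release 115 (dm6), not the authors' release. RPKM times exon length gave whole reads, to within 0.05, for 97.5% to 97.9% of genes under 1000 reads. In input replicate 1 the reads on genes exceed the recovered total, for a reason not known. The reads carry no molecular identifiers, so read numbers cover counting error only. No replicate pair was identical. Tables and plots used matplotlib 3.10.9, scipy 1.17.1, pandas 2.3.3 and numpy 2.4.6 under Python 3.11.15.

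Members and lists were chosen with earlier results of these data known. Values are given for all members called or tested, for Cpr, and for up to 3 called genes of the chitin, matrix and tanning lists. Marker genes printed singly, yellow-f and ple were named after their values were seen. Genes below the filter were named after their values were seen. The alternatives were another pseudocount, filter, scaling or variance trend, a replicate block, and each library left out.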

Additional observations from a re-analysis of the deposited data

How the results depend on the processing

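The count of cuticle protein genes called lower in GFP+ myoblasts (10) depended most on the filter. It was 4 with no filter on low values (124 genes tested) and 5 with a mean RPKM over 5, where only 5 genes could be tested and all 5 were called. Apart from Cpr12A, these genes reached that mean through the input, with myoblast means of at most 1.35 RPKM, so this filter favours such calls too. Of all 6188 genes tested with it, 607 were called lower. Leaving out single libraries, with the filter kept as set on all 6, gave 8 to 10 genes called lower and 0 called higher. Quantile normalization called 1 gene higher, Cpr65Ea. No other alternative moved either count by over 1.5 times. Over all genes tested, the 1534 calls became 894 with no filter, 920 with a mean RPKM over 5, 951, 918 and 903 without myoblast replicate 1, 2 or 3, and 2342 without input replicate 1. Whether the replicate number pairs the samples was not settled. Deviations of same-numbered myoblast and input libraries correlated at 0.345, 0.262 and 0.00685 for numbers 1, 2 and 3. Those of differently numbered libraries correlated at -0.326 to 0.156. The replicate block left the counts of cuticle protein genes at 10 lower and 0 higher, and gave 1668 calls over all genes tested. Over the 11 genes and the alternatives in which each could be tested, 132 results kept their direction and their side of the threshold, 15 lost the call, 1 gained it and none reversed. Cpr, which was not called, had a log2 fold change of -0.06, and of 0.0269 without myoblast replicate 1. Leaving out single libraries gave it -0.1487 to 0.0269, and the cause of the change of sign was not tested. Zeros limit what low values show, since where the other 2 inputs averaged 1 to under 2 RPKM, input replicate 1 was at 0 for 47.0% of genes.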
